A study of Homo sapiens with 8 samples.

Results

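The 8 genes described here are ones that COLO829 melanoma cells expressed most strongly after knockdown of MITF, and less strongly when such cells received the BRAF inhibitor PLX4032: DCSTAMP, SERPINB10, CRLF2, CST1, APLNR, SERPIND1, TM4SF1 and PLN. They are 8 of the 18404 genes measured and were chosen by hand because they stood high in DMSO-treated knockdown cells and fell strongly under PLX4032 in those cells. Their rise on knockdown in DMSO and their fall under PLX4032 in knockdown cells are therefore given as a description, with no test. COLO829 is an established human melanoma line with a mutant, constantly active BRAF kinase. The cells were infected with a pGIPZ vector that carried a hairpin against MITF, the master transcription factor of the melanocyte lineage, or with a scrambled control, and all of them went through 2 days of puromycin selection. PLX4032 (vemurafenib), which blocks mutant BRAF and with it the MEK and ERK kinases, was then given at 1 µM for 24 h, and control cells received its solvent DMSO. The 4 groups, scrambled DMSO, scrambled PLX4032, knockdown DMSO and knockdown PLX4032, had 2 arrays each, named A and B. The labels name a single hairpin construct against MITF and do not say whether A and B came from separate cultures; if they did not, the p-values reflect technical spread alone.

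As background, no single family or pathway holds these genes. SERPINB10 and SERPIND1 are serpins, inhibitors that trap proteases, and CST1 is a cystatin that blocks cysteine proteases. CRLF2 and APLNR are cell surface receptors for the cytokine TSLP and for the peptide apelin. DCSTAMP, TM4SF1 and PLN are membrane proteins that act in cell fusion, in membrane microdomains of the cell surface and in calcium pumping into the endoplasmic reticulum. None is a classical melanocyte gene.

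Levels are log2 intensities per probe set, normalised together by RMA, so a difference of 1 is a doubling of signal; each of these genes had 1 probe set. Changes carry the SE of 1 limma fit to the 8 arrays (n = 2 in each group), and a change was called where the Benjamini-Hochberg adjusted p over 18404 genes was below 0.05. Precision is limited by the number of arrays; over all genes the SE of a change had a median of 0.0939. The hairpin and the inhibitor were checked first. MITF fell by 0.93 ± 0.0803 on knockdown in DMSO (limma, adjusted p = 8.28e-06) and by 0.76 ± 0.0803 under PLX4032 (adjusted p = 3.02e-05). PLX4032 itself raised MITF, by 0.39 in scrambled cells and by 0.56 in knockdown cells (limma, adjusted p = 0.00319 and 0.000239). Knockdown cells with PLX4032 were therefore only 0.38 below scrambled DMSO cells in MITF (limma, adjusted p = 0.00254). The ERK phosphatase DUSP6, a read-out of pathway activity, fell by 2.68 ± 0.0841 under PLX4032 in scrambled cells and fell by 2.55 ± 0.0841 in knockdown cells (limma, adjusted p = 6.06e-09 and 4.34e-09). SPRY4, a feedback inhibitor of the same pathway, fell by 4.5 ± 0.101 and fell by 5.3 ± 0.101 (adjusted p = 7.63e-10 and 2.21e-10). Across genes, the arrays of a group correlated with an r of 0.99734 to 0.99844. Of 9 measured melanocyte markers, 6 to 8 lay above the median gene in each group.

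SERPINB10 encodes a serpin of the intracellular clade, best known from cells of the bone marrow. Its level was 3.40 and 3.51 on the scrambled DMSO arrays, 3.78 and 3.55 with PLX4032, 7.52 and 7.40 on the knockdown DMSO arrays, and 3.92 and 3.97 in knockdown cells with PLX4032. Only the knockdown DMSO arrays were high, and the other 6 lay between 3.40 and 3.97. The rise on knockdown in DMSO was 4.01 ± 0.098, a 16.1-fold difference in signal, and the fall under PLX4032 in knockdown cells was 11.5-fold. SERPINB10 was thus low in every group but 1. In bulk RNA, a change in every cell and a change in the share of cells that hold the transcript cannot be told apart, and this applies to all of the genes below.

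SERPIND1, heparin cofactor II, is a secreted thrombin inhibitor made mainly by the liver. Its level was 6.87 and 7.33 in scrambled DMSO cells, 5.08 and 4.62 with PLX4032, 9.3 and 9.33 in knockdown DMSO cells, and 5.31 and 4.90 in knockdown cells with PLX4032. The knockdown DMSO arrays were highest and the scrambled DMSO arrays intermediate, and the PLX4032 arrays of the 2 hairpins overlapped at the low end. Its rise on knockdown in DMSO was 2.22 ± 0.183, and PLX4032 lowered it 18.5-fold in knockdown cells.

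CST1, cystatin SN, is a secreted inhibitor of papain-like cysteine proteases that is abundant in saliva. It read 5.15 and 4.67 in scrambled DMSO cells, 6.68 and 5.65 with PLX4032, 9.75 and 9.98 in knockdown DMSO cells, and 8.19 and 8.46 in knockdown cells with PLX4032. Its 4 groups did not overlap, and the arrays of scrambled PLX4032 cells differed most from each other (SD 0.728, n = 2). CST1 had the largest rise of the 8 genes on knockdown in DMSO, 4.96 ± 0.267 or 31.1-fold, and the smallest fall under PLX4032 in knockdown cells, 2.91-fold. In knockdown cells with PLX4032 it remained above both scrambled groups.

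CRLF2 is the ligand-binding chain of the receptor for TSLP, a cytokine of epithelial origin, and it pairs with the chain encoded by IL7R. It read 3.98 and 3.71 in scrambled DMSO cells, 3.42 and 3.21 with PLX4032, 7.64 and 7.47 in knockdown DMSO cells, and 3.71 and 3.35 in knockdown cells with PLX4032. As for SERPINB10, the knockdown DMSO arrays stood alone. The 3 low groups overlapped with their neighbours in the order. The rise on knockdown in DMSO was 3.71 ± 0.137, or 13.1-fold, and the fall under PLX4032 in knockdown cells was 16.3-fold.

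APLNR is a G protein-coupled receptor that is known from endothelium and heart. It read 7.48 and 8.14 in scrambled DMSO cells, 5.04 and 4.98 with PLX4032, 9.57 and 9.81 in knockdown DMSO cells, and 5.35 and 4.66 in knockdown cells with PLX4032. Both DMSO groups were high and both PLX4032 groups low, and within PLX4032 the arrays of the 2 hairpins overlapped. Knockdown in DMSO raised it by 1.88 ± 0.225, or 3.69-fold, and PLX4032 lowered it 25.7-fold in knockdown cells, the largest fall of the 8 genes there.

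DCSTAMP spans the membrane several times and is needed for the fusion of osteoclast precursors and of macrophages. It read 5.89 and 6.03 in scrambled DMSO cells, 5.69 and 5.70 with PLX4032, 8.16 and 8.17 in knockdown DMSO cells, and 4.07 and 3.81 in knockdown cells with PLX4032. No groups overlapped, and the lowest arrays were those of knockdown cells with PLX4032, below both scrambled groups. The rise on knockdown in DMSO was 2.20 ± 0.0988 and the fall under PLX4032 in knockdown cells was 18.7-fold.

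TM4SF1, a relative of the tetraspanins, marks endothelial cells and many carcinomas. It read 7.91 and 7.97 in scrambled DMSO cells, 5.05 and 5.08 with PLX4032, 9.30 and 9.13 in knockdown DMSO cells, and 4.98 and 4.80 in knockdown cells with PLX4032. Its levels followed the treatment first: the 4 DMSO arrays lay above 7.9 and the 4 PLX4032 arrays below 5.1. Knockdown in DMSO raised it by 1.27 ± 0.0932, and PLX4032 lowered it 20.1-fold in knockdown cells.

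PLN, phospholamban, holds back the calcium pump of the endoplasmic reticulum and is best known from heart muscle. It read 5.64 and 5.85 in scrambled DMSO cells, 5.97 and 5.76 with PLX4032, 6.78 and 6.59 in knockdown DMSO cells, and 4.40 and 4.16 in knockdown cells with PLX4032. The scrambled groups overlapped, the knockdown DMSO arrays lay above them and the knockdown PLX4032 arrays below them. PLN had the smallest rise of the 8 genes on knockdown in DMSO, 0.94 ± 0.119, and a 5.3-fold fall under PLX4032 in knockdown cells.

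**Figure D1:**
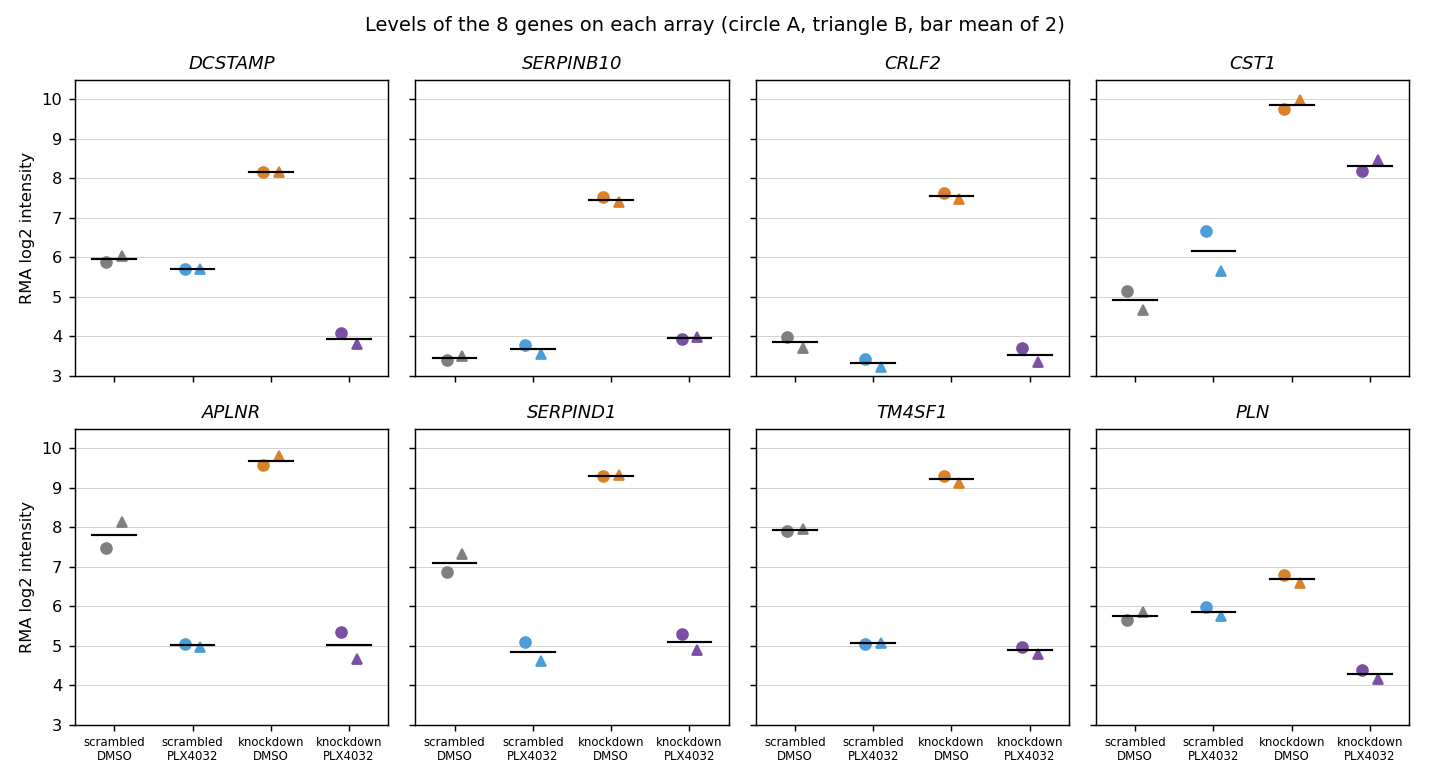
Level of each of the 8 genes on each array, in RMA log2 intensity, by group; circles are the A samples, triangles the B samples and bars the mean of 2. SERPINB10 and CRLF2 were high in knockdown DMSO cells alone, at 7.40 to 7.64, while APLNR, SERPIND1 and TM4SF1 were also raised in scrambled DMSO cells against both PLX4032 groups.

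In the comparisons that the choice of genes rested on, all 8 genes necessarily rose or fell: 33.2% of all genes were called in either direction for knockdown in DMSO, and 33.7% for PLX4032 given to knockdown cells. The median gene changed by 0.02 and 0.04 there. No numeric threshold defined the set. Both knockdown DMSO arrays lay above all other arrays for 1513 genes, or 8.22% of those measured. The knockdown DMSO mean exceeded every other group mean by at least 1 for 125 genes (0.679%), among them 7 of the 8. PLN was outside with a margin of 0.82, and TM4SF1 was closest inside with 1.27. The margins of CRLF2 and SERPINB10, 3.71 and 3.52, were the largest and second largest of all genes. Of the others, SERPIND1 had a margin of 2.22, DCSTAMP 2.21, APLNR 1.88 and CST1 1.54.

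The response to PLX4032 in scrambled cells played no part in the choice, although the scrambled DMSO arrays are also the reference for the rise on knockdown. A choice of genes with a rise from those arrays favours rises in this comparison too. Here the 8 genes parted into 3 kinds of response. TM4SF1, APLNR and SERPIND1 fell steeply without knockdown, CRLF2 fell slightly, CST1 rose, and DCSTAMP, SERPINB10 and PLN did not pass the test. SERPINB10 and CRLF2 were already low in scrambled DMSO cells, with means of 3.45 and 3.84, and whether this limited a fall was not tested. Only 5.17% and 12.9% of genes had lower means there. TM4SF1 fell by 2.87 ± 0.0932, or 7.34-fold (limma, adjusted p = 7.48e-09). APLNR, the apelin receptor, fell by 2.80 ± 0.225, or 6.97-fold (limma, adjusted p = 3.83e-06), and SERPIND1 fell by 2.25 ± 0.183, or 4.75-fold (adjusted p = 4.23e-06). These were the 16th, 18th and 45th largest falls of all genes. CRLF2 fell by 0.53 ± 0.137, or 1.44-fold (limma, adjusted p = 0.0118). CST1 rose by 1.26 ± 0.267, or 2.39-fold (limma, adjusted p = 0.00371), although its direction in knockdown cells was down. Thus 4 of 8 fell, where 16.8% of all genes did, and 1 of 8 rose, where 17.3% of all genes did. The median change was -0.40 over the 8 genes and 0.05 over all genes.

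The genes that did not pass the test are given with the interval of the change. DCSTAMP changed by -0.27 (95% interval -0.49 to -0.05, limma adjusted p = 0.0593), SERPINB10 by 0.22 (0 to 0.43, adjusted p = 0.116) and PLN by 0.12 (-0.14 to 0.39, adjusted p = 0.464). In knockdown cells the PLX4032 changes of these genes, which entered the choice, were -4.23, -3.52 and -2.41. The call of CRLF2 was lost without scrambled DMSO array A (-0.39, limma adjusted p = 0.0771) and without scrambled PLX4032 array B (-0.42, adjusted p = 0.11), with adjusted p from 0.000705 to 0.11 over its alternatives. The call of CST1 was lost with a trended, robust variance (adjusted p = 0.0682), and its change was 0.74 without scrambled PLX4032 array A and 1.77 without array B. DCSTAMP passed in 4 of 14 alternatives, with adjusted p from 0.025 to 0.272, and SERPINB10 in 1 of 13, with adjusted p from 0.0494 to 0.534.

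**Figure D2:**
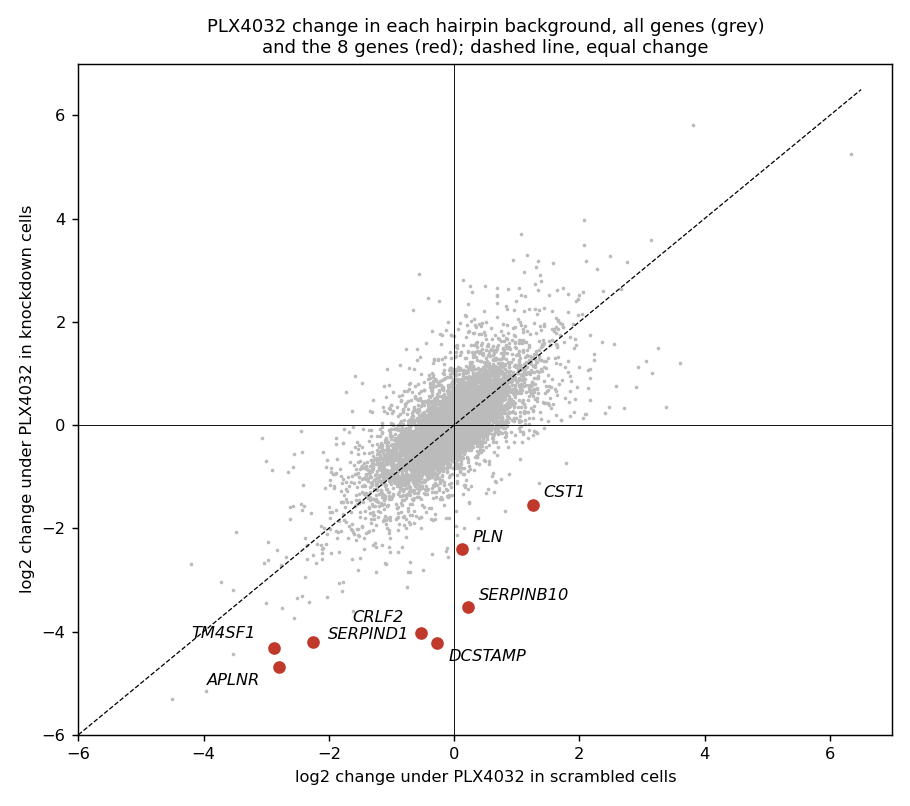
Change under PLX4032 (log2) in scrambled cells on the x axis and in knockdown cells on the y axis, for all genes in grey and the 8 genes in red, with a dashed line at equal change. All 8 lie below the line, a place that their choice by the change on the y axis favours. TM4SF1, APLNR and SERPIND1 lie near -2.25 to -2.87 on the x axis, PLN, SERPINB10 and DCSTAMP near 0, and CST1 at 1.26.

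Promoter sequence was at hand for 3 of the 8 genes (RefSeq, GRCh38.p14, from 250 bases before the transcription start to 50 after it). They are shown because they include a pair of genes that fell under PLX4032 in scrambled cells, TM4SF1 and SERPIND1, and PLN, for which no change was called. The windows are chr3:149377600-149377899 on the minus strand for TM4SF1, chr22:20773863-20774162 on the plus strand for SERPIND1 and chr6:118548046-118548345 on the plus strand for PLN. Each runs 5′ to 3′, and capitals mark matches to the motifs named next.
TM4SF1: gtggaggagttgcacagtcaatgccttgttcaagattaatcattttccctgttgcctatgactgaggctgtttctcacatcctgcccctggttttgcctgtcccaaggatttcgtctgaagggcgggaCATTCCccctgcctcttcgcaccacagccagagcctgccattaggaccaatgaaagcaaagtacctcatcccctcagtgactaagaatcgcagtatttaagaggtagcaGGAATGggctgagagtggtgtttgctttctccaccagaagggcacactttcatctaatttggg
SERPIND1: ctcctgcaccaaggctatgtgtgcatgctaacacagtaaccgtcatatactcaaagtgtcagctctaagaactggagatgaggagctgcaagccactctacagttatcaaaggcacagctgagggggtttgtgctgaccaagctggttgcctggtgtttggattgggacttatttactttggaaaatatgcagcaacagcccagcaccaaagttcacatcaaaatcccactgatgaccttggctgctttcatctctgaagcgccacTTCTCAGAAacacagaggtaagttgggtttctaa
PLN: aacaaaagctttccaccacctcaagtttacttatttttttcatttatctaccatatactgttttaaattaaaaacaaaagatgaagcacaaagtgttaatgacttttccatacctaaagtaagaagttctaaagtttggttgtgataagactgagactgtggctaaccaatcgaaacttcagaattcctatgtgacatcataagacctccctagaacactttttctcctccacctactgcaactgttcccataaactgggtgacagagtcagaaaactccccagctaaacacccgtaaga
Both strands were searched for an AP-1 site (TGANTCA), the E-boxes CATGTG and CACGTG, a cyclic AMP response element (TGACGTCA), a TEAD site (GGAATG) and a STAT site (TTCNNNGAA). TM4SF1 held the TEAD letters at positions -122 and -13 from the start, counted with the first transcribed base as 1, and SERPIND1 the STAT letters at position 17. No motif was found in the PLN window. Among 35116 promoters of the same length, 14% held the TEAD letters, 7.66% the STAT letters, 7.71% the AP-1 letters, 11.1% CATGTG, 7.26% CACGTG and 1.85% the response element. The GC content was 50% for TM4SF1, 47% for SERPIND1 and 36.7% for PLN, against a median of 58.7% over all promoters. These matches are a description of the letters and show no binding. The start of the antisense gene TM4SF1-AS1 lies within the TM4SF1 window, and its transcript was not analysed here.

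Knockdown in the presence of PLX4032 was not used in the choice either, but shares the knockdown PLX4032 arrays with it. The choice of genes with a strong fall on those arrays favours falls in this comparison too. CST1 was still raised by the hairpin, DCSTAMP and PLN were lowered by it, and the other 5 genes did not pass the test. CST1 rose by 2.16 ± 0.267, or 4.47-fold (limma, adjusted p = 0.000106). DCSTAMP fell by 1.75 ± 0.0988, or 3.37-fold (limma, adjusted p = 2.49e-07), and PLN by 1.59 ± 0.119, or 3.01-fold (adjusted p = 2.14e-06). For DCSTAMP and PLN the direction was opposite to that in DMSO. Of the 8 genes, 1 rose, where 13.5% of all genes did, and 2 fell, where 15% of all genes did. Because the choice rested on values of the knockdown PLX4032 arrays, the counts and p-values of the 8 genes in this comparison are a description. They give no independent support. The median change was 0.11 over the 8 genes and 0.02 over all genes.

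APLNR differed by less than 0.01 between the hairpins under PLX4032 (95% interval -0.50 to 0.50, limma adjusted p = 1). The change was 0.25 for SERPIND1 (-0.15 to 0.66, adjusted p = 0.345) and 0.21 for CRLF2 (-0.09 to 0.51, adjusted p = 0.296). It was -0.18 for TM4SF1 (-0.39 to 0.03, adjusted p = 0.187), whose arrays did not overlap. SERPINB10 changed by 0.28 (0.06 to 0.49, limma adjusted p = 0.0576). SERPINB10 passed without scrambled PLX4032 array A (0.39, adjusted p = 0.0315) and missed in its other alternatives, at up to 0.34, and TM4SF1 passed only after a further quantile normalisation (-0.25, adjusted p = 0.0325, range to 0.611).

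Both perturbations together were compared with scrambled DMSO cells, a contrast whose groups are each an arm of a comparison used in the choice and whose value is the sum of the PLX4032 change in scrambled cells and the knockdown change under PLX4032. TM4SF1 fell by 3.05 (8.31-fold, limma adjusted p = 2.45e-09), APLNR by 2.80 (6.97-fold, 1.69e-06) and SERPIND1 by 1.99 (3.98-fold, 4.99e-06). DCSTAMP fell by 2.02 (4.06-fold, limma adjusted p = 4.31e-08) and PLN by 1.47 (2.76-fold, 1.81e-06). CST1 rose by 3.42 (10.7-fold, limma adjusted p = 1.36e-06) and SERPINB10 by 0.49 (1.41-fold, 0.00165). CRLF2 changed by -0.32 (95% interval -0.62 to -0.02, limma adjusted p = 0.0775) and passed in 4 of 13 alternatives, among them the fit with the sample letter as a replicate block (adjusted p = 0.0108; range 0.0108 to 0.456). Of the 8 genes 5 fell and 2 rose, where 21.5% and 27.1% of all genes did. Because the genes were chosen on values of both groups, these counts and p-values are a description and no independent support. The median change was -1.73 over the 8 genes and 0.08 over all genes.

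**Figure D3:**
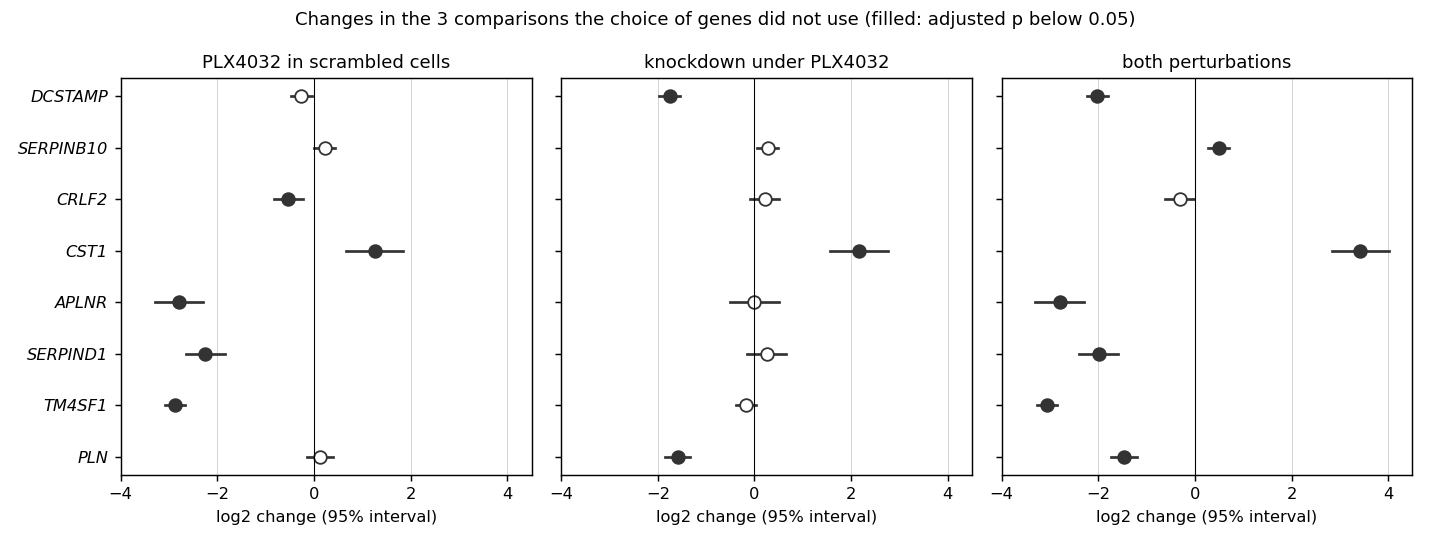
Change (log2) of each of the 8 genes with its 95% interval in the 3 comparisons that the choice did not use as such; filled points passed an adjusted p of 0.05. CST1 lies above 0 in each panel, TM4SF1, APLNR and SERPIND1 are below -1.9 in the left and right panels and near 0 in the middle one, and DCSTAMP and PLN are lowered in the middle and right panels.

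The nearest relatives and partners of these genes were followed in the same fit. For the cystatins, whose salivary members are so alike that probes of one gene can read another, CST2 rose on knockdown as CST1 did, and its PLX4032 change in scrambled cells did not pass the test. CST2 read 6.18 and 5.80 in scrambled DMSO cells, 6.25 and 6.19 with PLX4032, 8.57 and 8.54 in knockdown DMSO cells, and 7.74 and 7.96 in knockdown cells with PLX4032. It rose by 2.56 ± 0.121 on knockdown in DMSO (limma, adjusted p = 1.31e-07) and by 1.63 under PLX4032 (2.06e-06), and it fell by 0.71 under PLX4032 in knockdown cells (0.000813). In scrambled cells its PLX4032 change was 0.22 (limma, adjusted p = 0.187). CST4 rose by 0.69 ± 0.129 on knockdown in DMSO (adjusted p = 0.00188) and fell by 0.44 under PLX4032 in knockdown cells (0.0198, a call lost without either knockdown DMSO array or knockdown PLX4032 array A). CST3, cystatin C, the cystatin secreted by most cells, passed only for both perturbations (0.43 ± 0.0994, limma adjusted p = 0.00427).

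The partner chain of CRLF2 also rose on knockdown, with and without the inhibitor. IL7R read 5.51 and 6.05 in scrambled DMSO cells, 4.64 on both arrays with PLX4032, 6.98 and 7.14 in knockdown DMSO cells, and 6.15 and 6.16 in knockdown cells with PLX4032. It rose by 1.28 ± 0.142 on knockdown in DMSO (limma, adjusted p = 5.25e-05) and by 1.51 under PLX4032 (1.32e-05). PLX4032 lowered it by 1.14 in scrambled cells and by 0.91 in knockdown cells (adjusted p = 9.94e-05 and 0.000418). Its hairpin difference under PLX4032 was called, whereas that of CRLF2 was not. The ligand TSLP lay at group means of 3.24 to 3.37 and passed in no comparison (adjusted p from 0.419 to 0.964). Among 19 measured genes of TSLP and IL-7 receptor signalling, 6 rose and 6 fell on knockdown in DMSO, where 14.4% of all genes rose and 18.8% fell, with a median of -0.001 against 0.02 over all genes. SOCS2, a feedback inhibitor of cytokine receptors, rose by 1.57 (adjusted p = 3.28e-07), and JAK2, a kinase of these receptors, fell by 1.18 (6.59e-06).

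SERPINB8, which lies next to SERPINB10 among the measured genes of the serpin cluster, also rose on knockdown and responded to PLX4032 in both backgrounds. It read 7.92 and 8.26 in scrambled DMSO cells, 6.98 and 6.97 with PLX4032, 9.45 and 9.50 in knockdown DMSO cells, and 8.32 and 8.60 in knockdown cells with PLX4032. The rise was 1.39 ± 0.122 in DMSO (limma, adjusted p = 9.36e-06) and 1.49 under PLX4032 (4.26e-06), and the fall under PLX4032 was 1.12 in scrambled cells (3.66e-05). SERPINB7, on the other side, fell by 0.57 on knockdown in DMSO (limma, adjusted p = 0.00589). SERPINB2 was not analysed here. Among 29 measured serpins other than the chosen pair, 7 rose and 2 fell on knockdown in DMSO (median 0.08), against 14.4% and 18.8% of all genes. Under PLX4032 in scrambled cells 1 rose and 3 fell (median 0.10), against 17.3% and 16.8% of all genes; these shares hold for the lists below too. SERPINA3, an inhibitor of chymotrypsin-like proteases, rose by 2.09 on knockdown in DMSO (limma, adjusted p = 9.74e-08), and SERPINF1, the anti-angiogenic factor PEDF, fell by 1.76 (4.5e-07).

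SERPIND1's target thrombin, encoded by F2, passed in no comparison (changes from 0.14 to 0.28, limma adjusted p from 0.0741 to 0.448). Among 16 coagulation proteases and thrombin receptors, 4 rose and 2 fell on knockdown in DMSO (median 0.18; 14.4% and 18.8% of all genes), and 2 rose and 4 fell under PLX4032 in scrambled cells (median 0.09). The thrombin receptor F2R fell by 1.62 under PLX4032 in scrambled cells (limma, adjusted p = 2.24e-07) and rose by 1.31 on knockdown under PLX4032 (7.97e-07). PLAT led the rises of this list on knockdown in DMSO with 1.15 (limma, adjusted p = 2.14e-06). The urokinase receptor PLAUR rose by 0.91 there (adjusted p = 2.83e-05) and fell by 1.35 under PLX4032 in scrambled cells (1.36e-06). Among 21 cystatins and cysteine cathepsins, 7 rose and 3 fell on knockdown in DMSO (median 0.17; 14.4% and 18.8% of all genes), and 5 rose and 1 fell under PLX4032 in scrambled cells (median 0.16). Cathepsin F, CTSF, led the latter with 1.85 ± 0.089 (limma, adjusted p = 1.04e-07).

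The APLNR ligand APLN read 5.93 and 5.83 in scrambled DMSO cells, 5.65 and 5.61 with PLX4032, 6.2 and 6.31 in knockdown DMSO cells, and 6.09 and 5.57 in knockdown cells with PLX4032. It passed only for PLX4032 in knockdown cells, with a fall of 0.42 ± 0.138 (limma, adjusted p = 0.0353), and that call was lost in 6 of 14 alternatives (adjusted p up to 0.294), among them those without either knockdown DMSO array or without knockdown PLX4032 array B. The second ligand, APELA, was not analysed here. Among 14 genes of apelin signalling, 2 rose and 2 fell on knockdown in DMSO (median 0.05), and 1 rose and 2 fell under PLX4032 in scrambled cells (median -0.02). The counts on knockdown are near the shares of all genes, 14.4% and 18.8%. The transcription factor MEF2C rose by 0.57 and 0.84 in these comparisons (limma, adjusted p = 0.000894 and 4.69e-05).

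OCSTAMP and NFATC1, which act with DCSTAMP in osteoclasts, were not called on knockdown in DMSO (limma, adjusted p = 0.196 and 0.663). OCSTAMP, its partner in fusion, rose by 0.26 under PLX4032 in scrambled cells (limma, adjusted p = 0.0439, kept in 4 of 13 alternatives and lost without any 1 of the scrambled arrays or either knockdown DMSO array, at up to 0.148) and by 0.37 with both perturbations (0.00556, lost without knockdown PLX4032 array A at 0.0594). NFATC1, the transcription factor of osteoclast formation, fell by 0.43 on knockdown under PLX4032 (limma, adjusted p = 0.00661). That call was lost without scrambled PLX4032 array A or knockdown PLX4032 array B. NFATC1 also fell by 0.30 with both perturbations (limma, adjusted p = 0.0273), a call lost in 3 of 14 alternatives. Among 23 osteoclast and fusion genes, 7 rose and 1 fell on knockdown in DMSO (median 0.16; 14.4% and 18.8% of all genes), and 7 rose and 2 fell under PLX4032 in scrambled cells (median 0.15). On knockdown in DMSO FOS, an AP-1 subunit, rose by 1.34 (limma, adjusted p = 6.93e-06), CSF1, the macrophage growth factor, rose by 0.86 (1.26e-05), and SIRPA, a membrane receptor for CD47, fell by 0.95 (2.35e-05).

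TM4SF18, the measured neighbour of TM4SF1 and a member of its family, moved the other way. It read 5.84 and 6.22 in scrambled DMSO cells, 6.79 and 6.87 with PLX4032, 5.72 and 5.31 in knockdown DMSO cells, and 6.21 and 6.44 in knockdown cells with PLX4032. PLX4032 raised it by 0.80 ± 0.152 in scrambled cells and by 0.81 in knockdown cells (limma, adjusted p = 0.00174 and 0.00148). Knockdown lowered it by 0.51 in DMSO (limma, adjusted p = 0.0242, lost without the B array of either DMSO group, at up to 0.22). TM4SF4, on the other side of TM4SF1, passed in no comparison (limma, adjusted p from 0.745 to 0.973). Among 16 TM4SF and tetraspanin genes other than TM4SF1, 6 rose and 2 fell on knockdown in DMSO (median 0.17; 14.4% and 18.8% of all genes), and 5 rose and 3 fell under PLX4032 in scrambled cells (median 0.04). TSPAN13 rose by 1.10 on knockdown in DMSO and fell by 1.58 under PLX4032 in scrambled cells (limma, adjusted p = 6.77e-06 and 4.07e-07). TSPAN10 fell by 0.70 and rose by 2.06 in these comparisons (limma, adjusted p = 0.00394 and 1.73e-06). CD82 rose in both, by 0.88 and 1.18 (limma, adjusted p = 1.55e-05 and 1.37e-06).

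The pump that PLN inhibits, encoded by ATP2A2, rose by 0.32 ± 0.0823 under PLX4032 in knockdown cells (limma, adjusted p = 0.0113, lost without knockdown DMSO array B at 0.104) and did not pass elsewhere. SLN, sarcolipin, a second inhibitor of such pumps, passed in no comparison (limma, adjusted p from 0.0582 to 0.621). Among 26 genes of calcium pumps and stores, 4 rose and 3 fell on knockdown in DMSO (median 0.03), and 6 rose and 5 fell under PLX4032 in scrambled cells (median 0.04). On knockdown 14.4% of all genes rose and 18.8% fell, so these counts do not set the list apart. The calcium release channel ITPR2 rose by 1.07 on knockdown in DMSO (limma, adjusted p = 1.98e-05) and fell by 1.88 under PLX4032 in knockdown cells (1.67e-07), while its fall in scrambled cells was 0.72 (0.00028). ITPR1 fell in each of these comparisons, by 0.75, 0.92 and 1.54 in that order (limma, adjusted p = 6.51e-05, 8.52e-06 and 3e-07).

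**Figure D4:**
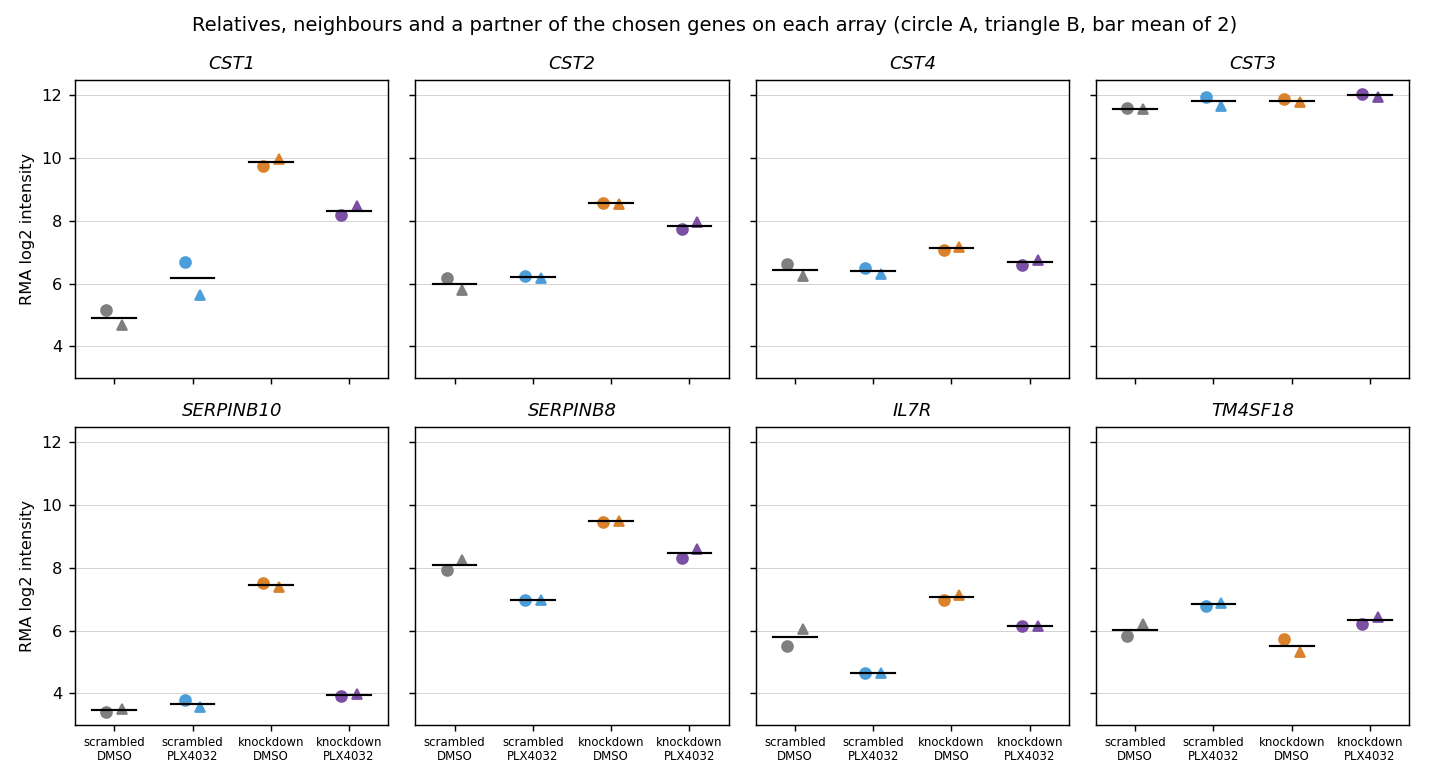
Level on each array (RMA log2 intensity) of CST1 and SERPINB10 beside their relatives CST2, CST4, CST3 and SERPINB8, of the CRLF2 partner IL7R, and of the TM4SF1 neighbour TM4SF18; circles are A, triangles B and bars the mean of 2. CST2 repeats the rise on knockdown, IL7R and SERPINB8 are lowered by PLX4032 with both hairpins, and TM4SF18 is highest, at 6.79 and 6.87, in scrambled PLX4032 cells.

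Of the other measured neighbours in RefSeq gene order, TNKS1BP1 beside APLNR was the only one called up on knockdown in DMSO and down under PLX4032 in knockdown cells. It rose by 0.49 on knockdown in DMSO (limma, adjusted p = 0.000864) and fell by 0.69 under PLX4032 in knockdown cells (5.08e-05). LRRC55, on the other side of APLNR, passed in no comparison. CSF2RA, the GM-CSF receptor chain beside CRLF2, fell by 1.14 on knockdown in DMSO (limma, adjusted p = 2.64e-05) and fell by 1.73 under PLX4032 in scrambled cells (1.01e-06), and PPP2R3B on the other side passed in none. Beside SERPIND1, PI4KA and SNAP29 rose by 0.42 and 0.52 under PLX4032 in scrambled cells (limma, adjusted p = 0.00157 and 0.000848), where SERPIND1 fell. RIMS2 beside DCSTAMP rose by 0.81 in that comparison (7.29e-05), and DPYS by 0.29 (0.0296). Beside PLN, MCM9 passed in no comparison and BRD7P3 fell by 0.23 under PLX4032 in scrambled cells (0.0422).

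Outputs of the inhibited pathway and the AP-1 factors were set beside the 8 genes. Of 18 ERK pathway output genes, 17 fell under PLX4032 in scrambled cells, with a median of -2.12 against 0.05 over all genes, and 17 fell in knockdown cells (median -1.78). On knockdown in DMSO 8 of the 18 rose and 1 fell (median 0.10; 14.4% and 18.8% of all genes), led by the ERK phosphatase DUSP5 with 1.86 ± 0.0954 (limma, adjusted p = 2.14e-07) and the early growth response factor EGR1 with 1.34 ± 0.144 (4.09e-05). Of 11 AP-1 factors, 6 rose on knockdown in DMSO (median 0.45), where 14.4% of all genes did. Under PLX4032 in knockdown cells 3 of them rose and 4 fell, against 18.6% and 15.1% of all genes. JUN rose in both, by 1.23 and 3.02 (limma, adjusted p = 3.38e-06 and 3.46e-09). Whether these genes have a part in the changes of the 8 was not tested.

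The genes most like the 8 in profile were sought among 615 genes whose group means spanned at least 2, by Pearson's r with the mean centred profile of the 8 genes over the 8 arrays. The arrays fall into 4 groups, so r mostly compares group means, and it is given as a description. The highest values were those of KIAA0040 (r = 0.997), the chemokine CXCL11 (r = 0.992), the lipopolysaccharide receptor TLR4 (r = 0.991), the vitamin D-degrading enzyme CYP24A1 (r = 0.991) and DUSP5 (r = 0.987). MAP3K5, a stress-activated kinase (r = 0.982), the centrosomal protein gene CNTRL (r = 0.981) and the scaffold gene DNMBP (r = 0.981) followed. Group means of CYP24A1 were 4.48 in scrambled DMSO cells, 3.73 with PLX4032, 6.91 in knockdown DMSO cells and 3.77 in knockdown cells with PLX4032. TLR4 had group means of 7.31, 6.60, 9.10 and 6.26 in that order. Among the 8 themselves r ran from 0.602 for CST1 and 0.762 for PLN to 0.983 for CRLF2. Each of the 8 is itself part of the mean profile, which raises its r against that of other genes.

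Several of the 8 genes are known from other cell types, so markers of those types were followed. Leukocyte markers, with 9 measured, gave array means of 4.26 to 4.42, and each of them lay below the median gene in every group. The means of 10 endothelial markers were 5.06 in scrambled DMSO cells, 5.13 to 5.19 with PLX4032, 5.09 to 5.10 in knockdown DMSO cells and 4.99 to 5.07 in knockdown cells with PLX4032; only KDR lay above the median gene. The means of 9 macrophage and osteoclast markers were 4.83 to 4.88, 5.01 to 5.03, 5.11 and 5.10 to 5.12 in that order, and 4 of them rose on knockdown in DMSO, where 14.4% of all genes did, among them CD14 by 0.85 (limma, adjusted p = 0.000126). The means of 10 hepatocyte markers were 4.30 to 4.35, 4.43 to 4.47, 4.64 to 4.66 and 4.65 to 4.74. In that list 3 of 10 rose and 0 fell on knockdown in DMSO, against 14.4% and 18.8% of all genes. Among them TF, transferrin, rose by 1.2 and TTR, transthyretin, by 0.97 (limma, adjusted p = 8.06e-06 and 0.000146). The means of 9 muscle markers were 4.97 to 5.07, 5.12 to 5.22, 5.14 to 5.16 and 5.27 to 5.29. Fibroblast markers, 10 in number, had means of 5.50 to 5.66 over all arrays and 8 keratinocyte markers 4.54 to 4.68. Of the 10 endothelial markers, 2 rose and 1 fell on knockdown in DMSO, against 14.4% and 18.8% of all genes. KDR was the marker that fell, by 0.93 (limma, adjusted p = 1.16e-05). The part of these cell types in the results was not tested. Melanocyte marker means were 9.18 to 9.21 in scrambled DMSO cells, 10.06 to 10.21 with PLX4032, 8.61 to 8.62 in knockdown DMSO cells and 9.20 to 9.23 in knockdown cells with PLX4032. The melanocyte means were thus lowest in knockdown DMSO cells, where the 8 genes were chosen to be high. On knockdown in DMSO 4 of the 9 melanocyte markers fell and 1 rose, where 18.8% and 14.4% of all genes did. The marker that rose was S100B, by 0.56 (limma, adjusted p = 0.000474).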

How the data were processed

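Each of 8 RNA samples went onto its own Affymetrix array (Human Gene 1.0 ST), per the labels. The authors deposited log2 values per probe set, and RMA is named, with no version, per the submitters' processing notes. RMA gives all arrays the same distribution and compresses changes of dim probe sets. Scanner files were not used here. The genome build of the annotation is not given in the sources used here. Of 32321 probe sets, 19158 carried 1 gene symbol in the platform annotation (2016), 1388 several and 11775 none; by Entrez identifier 19128 were found in current RefSeq records, and 0 symbols changed. Per gene the probe set with the highest mean over all arrays was kept, which left 18404 genes, with no filter on dim ones. No detection calls were used, so a low level does not show that a transcript is missing. Of the chosen genes, 5 of 8 passed the filter tried as an alternative, which left out the dimmest 40% of genes (mean level below 5.87); SERPINB10, CRLF2 and PLN did not.

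A mean per group was fitted with limma (3.58.1, R 4.3.3; lmFit and eBayes, 4 residual and 6.73 prior degrees of freedom), and two-sided p-values were adjusted by Benjamini-Hochberg across the 18404 genes, separately per comparison. It was tested on simulated data. The 8 genes, the 18 gene lists (257 genes measured) and the comparisons were chosen with earlier results of these data known. Named are the 8 genes, MITF, DUSP6 and SPRY4, direct partners, the nearest measured gene on either side and the 8 genes closest in profile. In lists other than those of cell types, up to 3 genes with the largest called change per comparison could be named. Single cell type markers were named outside this rule, as were the genes under the other observations. The letters A and B were checked as pairs: the correlation of A minus B differences between groups ran from -0.094 to 0.329, so the letters were not taken to pair samples. Alternatives were a filter on dim genes, another quantile normalisation, the mean of a gene's probe sets, only the arrays compared, a trended robust variance, the letter as a block, and leaving out each array.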

Additional observations from a re-analysis of the deposited data

Results flagged for a closer look

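For DCSTAMP, TM4SF1 and PLN the arrays moved one way on knockdown in DMSO and the opposite way on knockdown under PLX4032. The difference between the changes was -3.96 for DCSTAMP, -1.45 for TM4SF1 and -2.53 for PLN. For SERPINB10 and CST1 every array was higher with PLX4032 in scrambled cells and lower with it in knockdown cells, with differences of -3.74 and -2.80. These 5 differences were not tested, because the genes were chosen on changes that enter them. The change of TM4SF1 on knockdown under PLX4032 and that of SERPINB10 under PLX4032 in scrambled cells did not pass on their own. CST2, which was not among the chosen genes, had a tested difference between its PLX4032 changes in the 2 backgrounds of -0.93 (limma interaction, adjusted p = 0.00489, range 0.000595 to 0.0309). CST2 probes may also read CST1.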

How the results depend on the processing

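In the 3 comparisons that the choice of genes did not use as such, 327 changes of the 8 genes were recomputed: 313 kept their side of the threshold, 3 lost their call, 11 gained one and 0 called changes reversed. The change of APLNR on knockdown under PLX4032, near 0, ran from -0.35 to 0.35 and was never called. The genes called were 4 to 6 of 8 for PLX4032 in scrambled cells, 2 to 4 for knockdown under PLX4032 and 5 to 8 for both perturbations; the filter on dim genes removes 3 of the 8. Among counts over all genes, that for knockdown in DMSO moved most, from 6114 to between 3723 and 6377 when 1 array was left out, the lowest without knockdown DMSO array B. With the letter as a replicate block 6295 genes were called for PLX4032 in scrambled cells and 5 of the 8, and for both perturbations all 8, since CRLF2 was then called. A group left with 1 array is assumed to vary like the others. Signal over background is unknown, so falls that end near the low end of the scale may be understated.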

Other observations

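Other genes rose on knockdown in DMSO and fell under PLX4032 in knockdown cells as strongly as the chosen ones; they were picked after their values were seen and are given as a description. At least the smallest rise (0.94) and the smallest fall (1.54) seen among the 8 were met together by 88 genes, 0.478% of all, with the 8 themselves included. INHBA, which encodes an activin subunit, rose by 2.74 and had a PLX4032 change of -4.18. CXCL8, the chemokine interleukin-8, rose by 2.70 and changed by -2.68 under PLX4032. ADAMTS9 and ADAMTS1, secreted matrix proteases, rose by 2.65 and 2.37 and changed by -2.80 and -2.71. PTGS2, the inducible enzyme of prostaglandin synthesis, rose by 2.86 and changed by -2.36.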
